A study of Mus musculus with 37 samples.

Results

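The ATF4 arm of the integrated stress response was followed in the left ventricle of mice after cardiac arrest. Its 10 members, Atf4, Ddit3, Asns, Chac1, Trib3, Psat1, Phgdh, Mthfd2, Fgf21 and Gdf15, were taken by symbol from a table of 56748 genes, in which 11 rows carry a member symbol because Ddit3 is listed under 2 identifiers. The 37 libraries of left ventricular RNA comprised 5 of Naïve mice and, for Adr and for Arrest, 4 at each of 4 times (0.5 d, 1 d, 3 d and 7 d). All mice were wild-type C57BL/6J of both sexes, 8 to 10 weeks old, and all were given isoflurane. Naïve mice were neither intubated nor injected. Adr mice, called sham in the sample labels, were ventilated, were injected with 40 µL of saline into the left ventricle and received 500 µL of adrenaline at 15 µg/mL 8 min later. Arrest mice were ventilated too, were put into asystole with 40 µL of 0.5 M potassium chloride, and were resuscitated 8 min later with chest compressions and the same adrenaline. Arrest therefore differs from Adr by potassium chloride, the time without circulation and compressions, and either group differs from Naïve by the whole procedure. The labels do not say that each library is a separate mouse, so p-values measure the spread between these libraries.

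The integrated stress response is the shared output of several kinases that sense misfolded protein in the endoplasmic reticulum, amino acid shortage, viral RNA, haem shortage or mitochondrial trouble, and that all phosphorylate the translation factor eIF2α. Most protein synthesis then slows, while the mRNA of the transcription factor ATF4 is translated more, so that ATF4 protein can change with little change of its mRNA. Only mRNA was measured here. ATF4 switches on genes for amino acid synthesis and uptake, for folate-linked one-carbon metabolism, for further stress regulators and, in several tissues, for the secreted hormones FGF21 and GDF15. In heart muscle this programme is best known from mitochondrial disease models.

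ATF4 binds DNA as a dimer with C/EBP proteins at elements of the form TGATGNAA. The 250 bases before the RefSeq start were searched for these 8 letters on both strands, and a match was found in 3 of 10 members, in 3.91% of 27025 genes and in 3.45% of 32851 promoters. The 3 windows are shown because they hold the letters through which ATF4 can reach its targets, printed 5′ to 3′ along the gene with the match in capitals.
Asns promoter, GRCm38.p6 chr6:7693210-7693459, minus strand: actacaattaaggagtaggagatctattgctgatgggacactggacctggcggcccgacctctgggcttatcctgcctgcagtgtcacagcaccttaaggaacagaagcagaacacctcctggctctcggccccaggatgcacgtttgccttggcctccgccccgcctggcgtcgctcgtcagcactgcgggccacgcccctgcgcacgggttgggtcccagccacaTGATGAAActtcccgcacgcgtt
Chac1 promoter, GRCm38.p6 chr2:119350992-119351241, plus strand: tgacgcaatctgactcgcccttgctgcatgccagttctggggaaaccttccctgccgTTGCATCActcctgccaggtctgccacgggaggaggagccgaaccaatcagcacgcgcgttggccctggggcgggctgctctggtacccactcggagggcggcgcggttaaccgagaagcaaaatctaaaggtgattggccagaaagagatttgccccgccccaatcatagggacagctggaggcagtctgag
Fgf21 promoter, GRCm38.p6 chr7:45615491-45615740, minus strand: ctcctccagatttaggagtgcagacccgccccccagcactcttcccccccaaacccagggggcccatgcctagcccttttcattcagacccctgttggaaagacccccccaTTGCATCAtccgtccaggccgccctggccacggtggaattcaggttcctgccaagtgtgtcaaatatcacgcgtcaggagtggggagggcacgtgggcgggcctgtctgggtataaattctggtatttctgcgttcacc
The match began 23 bases before the start in Asns, where it lies on the gene's own strand, and 193 and 139 bases before it in Chac1 and Fgf21, where the capitals TTGCATCA spell the motif read along the opposite strand. For the other 7 members these letters were not in the windows searched, which says nothing of elements in introns or farther upstream. A match is a description of the sequence, and binding was not measured.

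Values were FPKM, fragments scaled by gene length and by a library factor that the authors set, so levels can be set side by side across genes. Libraries held 13.2 to 30.2 M fragments on genes (median 14.9 M). All 5 cardiomyocyte markers were present in every group, summing to 5000 to 13323 FPKM in 36 libraries. Adr 3 d replicate 3 stood apart from these, with 2768 FPKM. In that library mitochondrially encoded genes took 9.36% of fragments, against 20.8% to 30.9% elsewhere. Its 5 macrophage and monocyte markers summed to 272 FPKM (26.0 to 102 elsewhere), its 5 fibroblast markers to 648 (197 to 451 elsewhere) and its 5 proliferation markers to 45.6 (0.398 to 12.7 elsewhere). The study's methods state that an Adr sample of that time was excluded for poor quality, and the labels do not identify it. All 4 libraries labelled Adr 3 d are in the table, so whether the excluded sample is among them is not given in the sources used here. The FPKM of replicate 3 are scaled to 24.1 M although it holds 17.2 M fragments. Differences from Naïve at 3 days after adrenaline are given with and without this library for Trib3, Asns, Psat1, Phgdh, Mthfd2 and Gdf15. Naïve replicate 4 had a value above 0 for 13475 genes, the fewest of the 37 libraries, at 13.4 M fragments. The Naïve libraries ran from 13475 to 16925 such genes at 13.4 to 15.7 M fragments. All lay below every library at 0.5 days, with 18496 to 21377 genes in Adr (13.2 to 18.5 M) and 17081 to 20435 in Arrest (14.4 to 21.7 M). The part of this in the differences of low genes from Naïve was not tested.

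Of the members, Atf4 was by far the most abundant mRNA, with a mean of 45.2 FPKM over 37 libraries (94.9th percentile of the genes tested). Ddit3 followed with 9.32 FPKM, and Chac1, Trib3, Psat1, Mthfd2, Gdf15, Asns and Phgdh lay between 2.17 and 1.13 FPKM. Neighbours among those 7 genes overlapped widely from library to library. Fgf21 was listed at 0 in 31 of 37 libraries. Low levels rest on few fragments, with a median of 54 per library for Asns, 40 for Phgdh and 30 for Gdf15, against 1658 for Atf4. With a minimum of 0.5 FPKM in at least 4 libraries, 9 of the 10 members were among the 16579 genes tested. Fgf21 did not pass, and neither did the second, 105-base row of Ddit3, which was 0 in all 37 libraries.

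**Figure D1:**
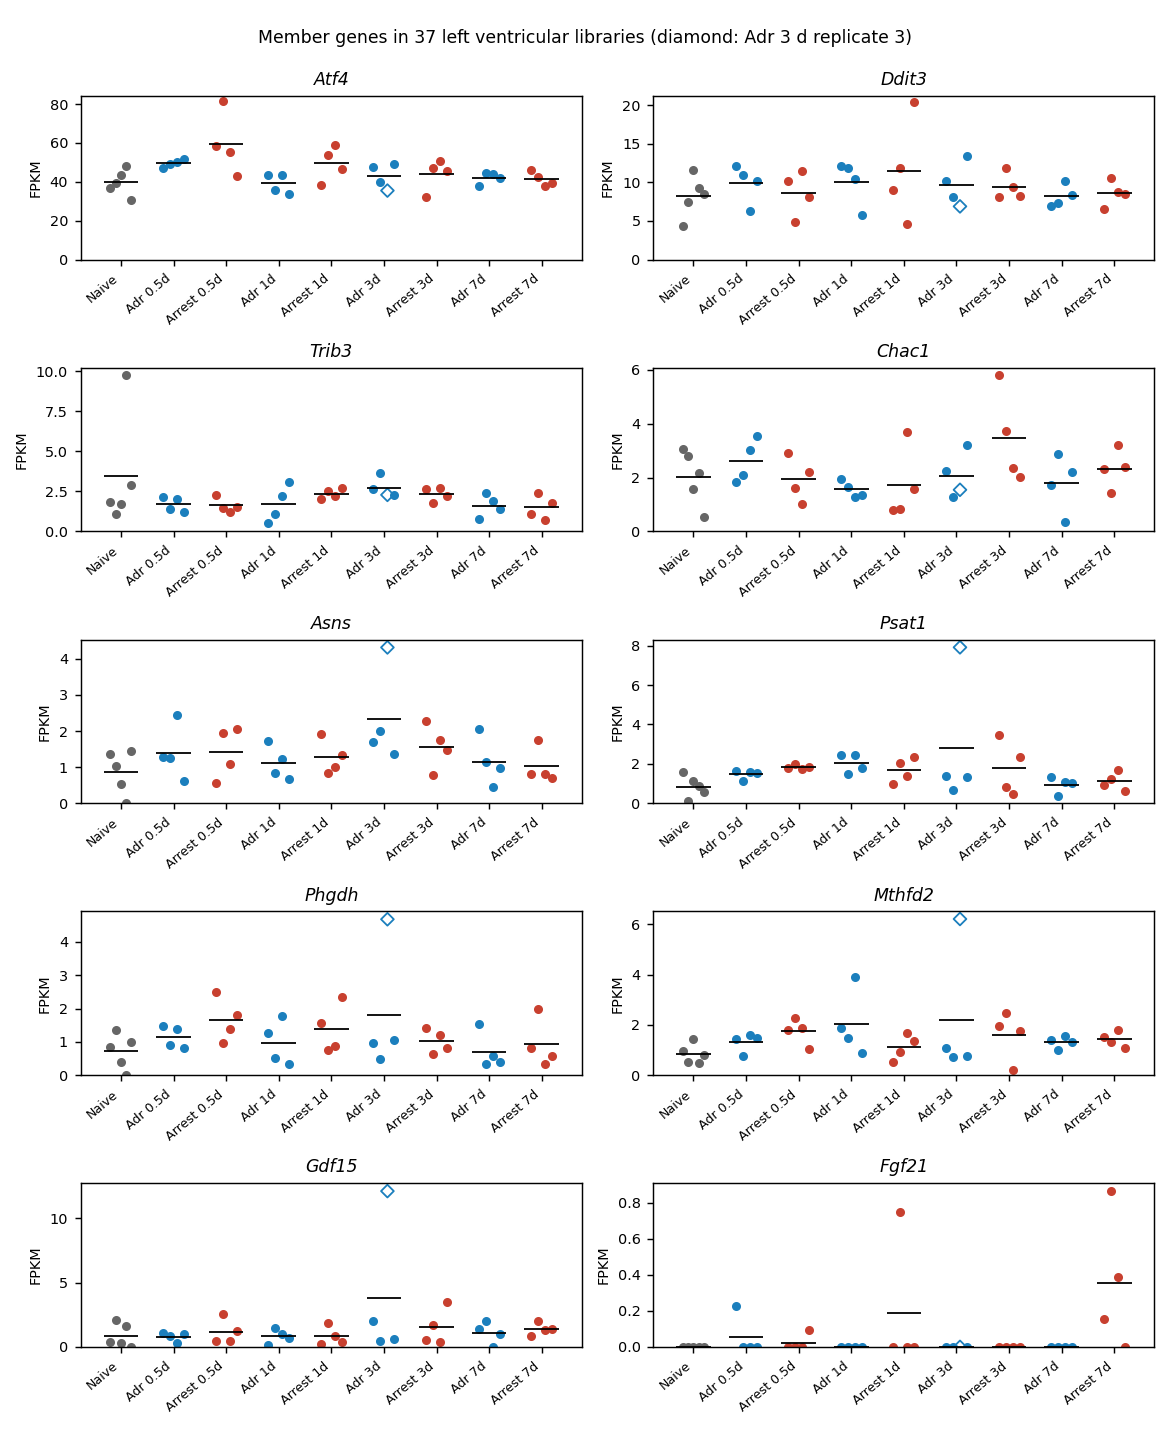
FPKM of each member (y axis, from 0) in every library of the 9 groups (x axis), with a bar at the group mean and a diamond for Adr 3 d replicate 3. Atf4 reaches 81.6 FPKM in 1 library of Arrest at 0.5 days, and the diamond is the highest of 37 libraries for Asns, Psat1, Phgdh, Mthfd2 and Gdf15 but not for Atf4.

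Atf4, the central transcription factor, was the only member that passed the test in any of the 14 comparisons. Naïve replicates 1 to 5 had 36.6, 39.2, 43.6, 48.3 and 30.8 FPKM. Arrest replicates 1 to 4 at 0.5 days had 58.5, 81.6, 55.1 and 43.1 FPKM. Replicates 1 to 3 of Arrest lay above every Naïve library, while replicate 4 lay within the Naïve range. The group means were 59.6 ± 16.1 FPKM (SD, n = 4) in Arrest and 39.7 ± 6.68 FPKM (SD, n = 5) in Naïve. On the scale of log2(FPKM + 1), the limma estimate of the difference was 0.55 (SE 0.15, 95% interval 0.24 to 0.86), with an adjusted p of 0.0401. This was 1 of 9 members tested, while 3.2% of all genes tested passed in that comparison. In bulk tissue, fewer cells of a type and less RNA per cell cannot be told apart.

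The Atf4 call was close to the threshold. Leaving out Arrest 0.5 d replicate 2, the library at 81.6 FPKM, gave 0.39 with an adjusted p of 0.228. The call was also lost without Naïve replicate 1, 2 or 5 and without Arrest replicate 1 or 3 (differences of 0.47 to 0.58), and it was kept without Naïve replicate 3 or 4 or Arrest replicate 4. It was lost as well after quantile normalisation (0.45, adjusted p = 0.057), with a fit of only these groups (0.55, adjusted p = 0.173) and after a correction for gene length (0.47, adjusted p = 0.0916). The estimate stayed above 0 under each of these settings.

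**Figure D2:**
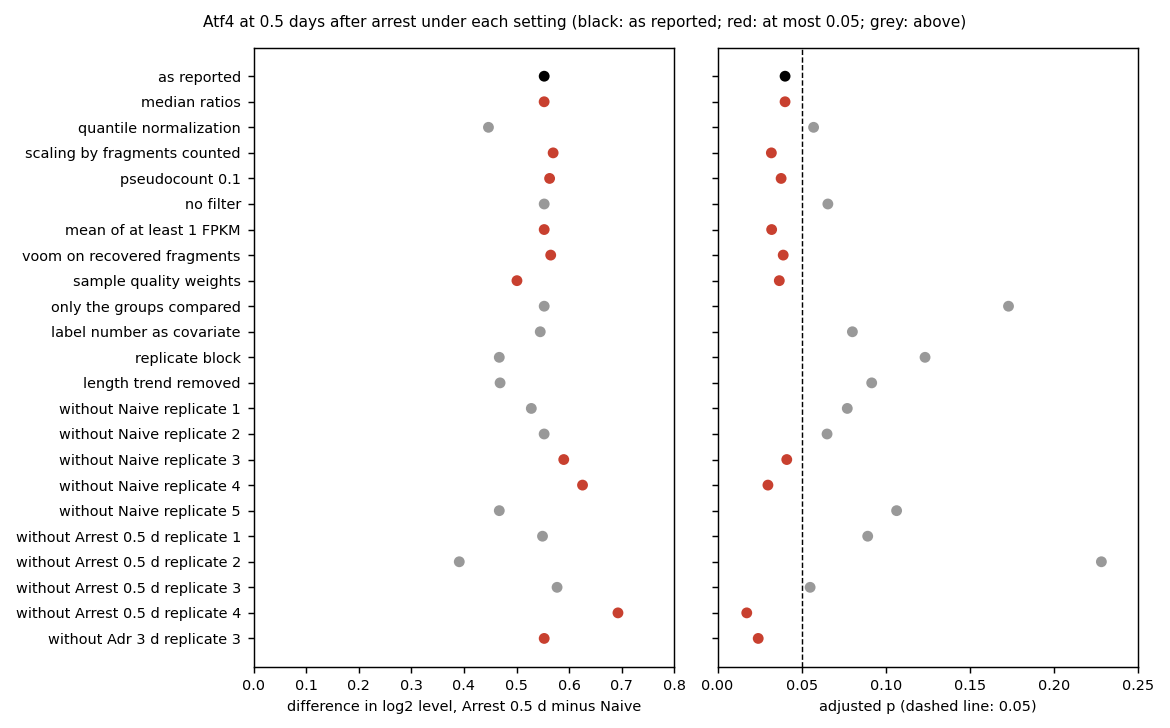
Left, the difference in Atf4 between Arrest at 0.5 days and Naïve on the log2 scale (x axis) under each processing setting or left-out library (y axis). Right, the adjusted p of the same fits with the threshold of 0.05 as a dashed line: estimates run from 0.39 to 0.69, and p lies on both sides of the line.

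At the other times Atf4 was nearer to Naïve. Arrest replicates 1 to 4 had 38.6, 53.8, 58.9 and 46.7 FPKM at 1 day, and the groups overlapped. The difference from Naïve was 0.31 (95% interval -0.001 to 0.62, adjusted p = 0.232) at 1 day. It was 0.14 (adjusted p = 0.747) by 3 days and 0.08 (adjusted p = 1) by 7 days. Arrest libraries lay between 32.2 and 50.7 FPKM at 3 days and between 38.1 and 46.2 FPKM at 7 days, both overlapping the Naïve range. After adrenaline without arrest, the 4 libraries at 0.5 days had 47.1, 49.2, 50.3 and 52.0 FPKM, all but the lowest above every Naïve library. Their difference from Naïve was 0.33 (95% interval 0.02 to 0.64), with an unadjusted p of 0.0383 and an adjusted p of 0.323. Later Adr libraries lay between 33.6 and 49.4 FPKM, and their groups differed from Naïve by -0.01, 0.12 and 0.10 in order of time, with adjusted p-values of 0.991, 0.764 and 0.994. Arrest and Adr were not distinguished directly at 0.5 days (difference 0.22, 95% interval -0.11 to 0.55, adjusted p = 1), nor was Arrest at 1 day told from Arrest at 0.5 days (-0.24, 95% interval -0.57 to 0.09). The Atf4 difference from Naïve was thus not shown to belong to the arrest rather than to the procedure with adrenaline.

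Levels of some markers of other cell types differed in the same comparison. In Arrest at 0.5 days, 2 of 5 endothelial markers passed the test, in opposite directions, beside 3.2% of all genes tested. Kdr, a receptor for vascular endothelial growth factor, was at -0.95 (adjusted p = 0.0182) and Emcn, a surface mucin, at 0.60 (adjusted p = 0.0108). The summed endothelial markers ran from 148 to 192 FPKM in Arrest and from 154 to 164 in Naïve. Macrophage and monocyte markers summed to 45.3 to 94.0 FPKM against 30.3 to 51.2, and neutrophil markers to 3.51 to 31.9 against 0 to 9.74, with Ly6g at 0 in all 37 libraries. Summed smooth muscle and pericyte markers were lower in each Arrest library, at 170 to 187 FPKM against 193 to 289, as were proliferation markers at 0.516 to 0.985 against 1.20 to 3.06. No single marker of these types passed the test in any comparison, and the share of all genes lower in every Arrest library was not computed. Hepatocyte markers summed to 0.608 to 1.23 FPKM in Arrest and were at 0 in all Naïve libraries. Of all genes tested, 4.49% were higher in every Arrest library. Cardiomyocyte markers overlapped, at 8043 to 11976 FPKM against 9692 to 11250, as did atrial, fibroblast, red cell, adipocyte and skeletal muscle markers. Their part in the Atf4 difference was not tested.

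The stress regulators downstream of ATF4 did not pass the test at any time. Ddit3 encodes CHOP, a transcription factor tied to cell death under prolonged stress. Its Naïve libraries had 4.40 to 11.6 FPKM (median 8.55) and Arrest at 0.5 days 10.2, 4.90, 11.5 and 8.11 FPKM, all within the Naïve range. The difference was 0.06 (95% interval -0.51 to 0.63, adjusted p = 0.947), and over the 8 comparisons with Naïve it ran from 0.03 to 0.32. Group means ran from 8.19 ± 1.44 FPKM (SD, n = 4, Adr at 7 days) to 11.5 ± 6.68 FPKM (SD, n = 4, Arrest at 1 day), so the highest mean came with the widest spread. Arrest 1 d replicate 4, at 20.4 FPKM, was the highest of all 37 libraries, and replicate 3 of that group was among the lowest at 4.56 FPKM. Ddit3 overlaps Mars1 on the opposite strand, and the sources used here do not state whether strand was counted, so reads of these genes may be shared.

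Trib3 encodes a pseudokinase that feeds back on ATF4. Its estimate lay below Naïve in all 8 comparisons, from -0.61 to -0.01, with adjusted p-values of at least 0.398. The value nearest to 0, that of Adr at 3 days, turned to 0.05 without replicate 3. Naïve replicates 1 to 5 had 1.83, 1.10, 1.68, 9.76 and 2.90 FPKM, so replicate 4 alone lay far above the rest, on 282 fragments. Arrest at 0.5 days had 2.25, 1.48, 1.24 and 1.51 FPKM. Its difference from Naïve was -0.50, and -0.12 (adjusted p = 0.864) without Naïve replicate 4. In the other 7 groups the libraries lay between 0.544 and 3.64 FPKM, close to the 4 lower Naïve libraries.

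Chac1 encodes an enzyme that breaks down glutathione, and its promoter carries one of the printed matches. Naïve libraries had 3.04, 2.81, 1.58, 2.16 and 0.545 FPKM. Arrest had 2.92, 1.63, 1.02 and 2.19 FPKM at 0.5 days, and 5.80, 3.73, 2.36 and 2.01 FPKM at 3 days, with 2 of the 4 libraries at 3 days above every Naïve library. The differences were -0.01 (95% interval -0.63 to 0.62) at 0.5 days and 0.57 (adjusted p = 0.416) at 3 days. Over the settings tried the estimate at 0.5 days lay between -0.23 and 0.16, with both signs.

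The enzymes of amino acid and one-carbon metabolism were low in the ventricle. Their estimates against Naïve were above 0 in every one of the 8 comparisons for Asns, Psat1, Phgdh and Mthfd2. The same held for Ddit3 and Gdf15, while Atf4 was above 0 in 7 of them, Chac1 in 4 and Trib3 in 0. These comparisons share the 5 Naïve libraries, and none of the estimates of the 4 enzymes passed the test. The share of all genes above 0 in every comparison was not computed. The median difference over the 9 members was 0.38 in Arrest at 0.5 days, against 0.03 over all genes tested. In Adr at 0.5 days it was 0.33 against 0.04. The 0.5-day values were not the highest, since the median was 0.52 in Adr and 0.40 in Arrest at 3 days, against 0.02 and 0.01 over all genes, and that of Adr was 0.18 without replicate 3. It was 0.20 and 0.31 at 1 day and 0.10 and 0.16 at 7 days. The size of these estimates depends on the pseudocount, which damps low genes: in Arrest at 0.5 days Psat1, Phgdh, Mthfd2 and Asns went from 0.68, 0.66, 0.59 and 0.38 to 1.34, 1.48, 1.03 and 0.97 with a pseudocount of 0.1, with adjusted p-values from 0.168 to 0.362.

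Psat1 and Phgdh make serine from a glycolytic intermediate. Naïve libraries had 1.58, 0.104, 1.13, 0.864 and 0.559 FPKM of Psat1, and Arrest at 0.5 days had 1.81, 1.97, 1.75 and 1.85 FPKM. Every Arrest library lay above every Naïve library, a pattern shown by 1 of 9 members and by 4.49% of all genes tested. The difference was 0.68 (95% interval 0.02 to 1.34, adjusted p = 0.257). Adr at 1 day had 2.45, 1.49, 2.43 and 1.81 FPKM of Psat1 and overlapped Naïve at the margin, with a difference of 0.76 (adjusted p = 0.255). For Phgdh, Naïve libraries had 0.848, 1.34, 0.398, 0 and 0.987 FPKM and Arrest at 0.5 days 2.50, 0.952, 1.37 and 1.80 FPKM. Replicates 1, 3 and 4 of Arrest exceeded all Naïve libraries. The difference was 0.66 (95% interval 0.03 to 1.29, adjusted p = 0.251), and 0.48 without Naïve replicate 4, which was listed at 0.

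Mthfd2, a mitochondrial enzyme of the folate cycle, had 0.971, 0.506, 1.44, 0.464 and 0.810 FPKM in Naïve. In Arrest at 0.5 days it had 1.80, 2.29, 1.88 and 1.03 FPKM, with only replicate 4 inside the Naïve range. The difference was 0.59 (95% interval -0.06 to 1.23, adjusted p = 0.328), and in Adr at 1 day it was 0.66 (unadjusted p = 0.0453, adjusted p = 0.326). Asns, asparagine synthetase, had 1.36, 1.04, 0.529, 0 and 1.44 FPKM in Naïve and 0.548, 1.95, 1.08 and 2.07 FPKM in Arrest at 0.5 days, so the groups overlapped. The difference was 0.38 (adjusted p = 0.492), and 0.18 without Naïve replicate 4.

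At 3 days after adrenaline the high values of Psat1, Mthfd2 and Phgdh came from 1 library, and those of Asns in part. Adr 3 d replicate 3 had 7.92 FPKM of Psat1, 6.21 of Mthfd2, 4.68 of Phgdh and 4.32 of Asns. The other 3 libraries of the group had 0.693 to 1.37 FPKM of Psat1 0.714 to 1.06 of Mthfd2 and 0.475 to 1.04 of Phgdh, within the Naïve ranges. For Asns they had 1.68, 1.99 and 1.36 FPKM, 2 of them above the highest Naïve library (1.44 FPKM). The largest estimate for Asns, 0.83 (unadjusted p = 0.00499, adjusted p = 0.191), became 0.58 (adjusted p = 0.679) without this library, and that for Psat1 went from 0.76 (adjusted p = 0.287) to 0.24 (adjusted p = 0.892). The estimates for Phgdh and Mthfd2 went from 0.55 to 0.14 and from 0.52 to 0.03. The library held the highest value of 37 for 5 of 9 members, and for 15% of all genes tested. Among the pathway lists, that share ran from 16.7% (2 of 12 aminoacyl-tRNA synthetases) to 50% (4 of 8 eIF2α kinases and sensors), with 6 of 16 further enzymes of serine, glycine, proline and one-carbon metabolism. Atf4 itself was low there at 35.5 FPKM, the 34th of 37 libraries, as was Ddit3 at 6.89 FPKM. The lower cardiomyocyte markers and the higher macrophage, fibroblast and proliferation markers of this library move with these values, and their part was not tested.

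Of the secreted factors, Gdf15 was low and Fgf21 was near the limit of detection. Gdf15, a hormone that acts through the receptor GFRAL and its partner RET, had 0.345, 2.11, 0.288, 1.63 and 0 FPKM in Naïve and 0.424, 2.52, 0.452 and 1.23 FPKM in Arrest at 0.5 days. The ranges overlapped almost fully. The difference was 0.24 (95% interval -0.71 to 1.19, adjusted p = 0.847), the widest interval of the members. Adr 3 d replicate 3 had 12.1 FPKM on 542 fragments, whereas the highest of the other 36 libraries was Arrest 3 d replicate 4 with 3.52 FPKM. The largest estimate for Gdf15, 0.87 (adjusted p = 0.397) in Adr at 3 days, was 0.18 (adjusted p = 0.962) without this library. In Arrest at 7 days the mean was 1.40 ± 0.485 FPKM (SD, n = 4) against 0.874 ± 0.932 FPKM (SD, n = 5) in Naïve.

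Fgf21, a metabolic hormone made mainly by liver, was above 0 in 6 of 37 libraries. Naïve libraries and those of Adr at 1, 3 and 7 days and Arrest at 3 days were listed at 0. A count of 0 allows up to 3 fragments, or 0.199 to 0.240 FPKM in the Naïve libraries, for counting error only. Arrest at 7 days had 0.155, 0.865, 0.389 and 0 FPKM, on 2, 13, 5 and 0 fragments. Of the 3 Arrest libraries listed above 0, that with 0.155 FPKM lay below what a 0 allows in the Naïve libraries. The mean difference from Naïve was 0.352 FPKM, and an exact two-sided permutation test gave p = 0.0952 (adjusted over 4 comparisons, 0.381). The other positive libraries were Arrest 1 d replicate 2 with 0.748 FPKM, Adr 0.5 d replicate 1 with 0.225 FPKM and Arrest 0.5 d replicate 4 with 0.0921 FPKM. The 5 hepatocyte markers summed to at most 0.374 FPKM in Arrest at 7 days, with 3 of them at 0 in all of its libraries.

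**Figure D3:**
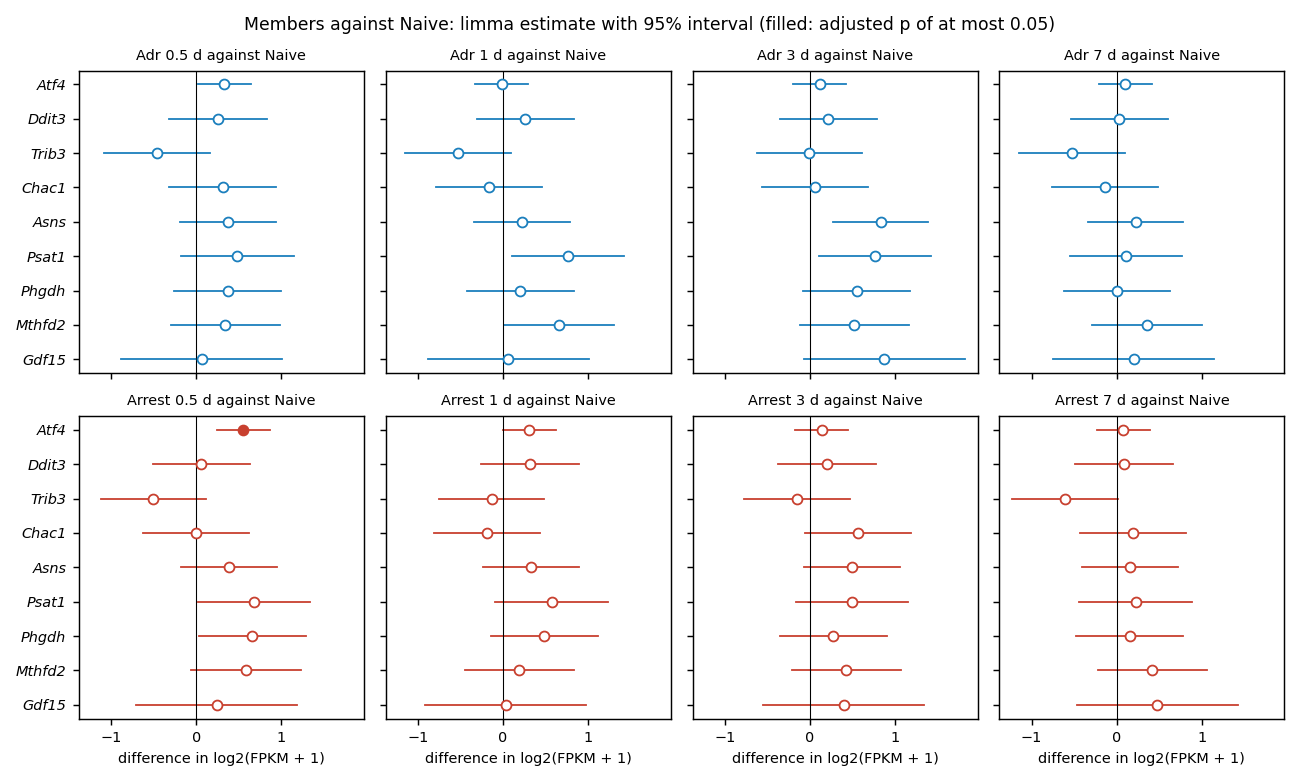
Difference of each tested member from Naïve in log2(FPKM + 1) (x axis) with its 95% interval, for Adr (upper row, blue) and Arrest (lower row, red) at the 4 times. A filled circle marks an adjusted p of at most 0.05: the only one is Atf4 in Arrest at 0.5 days, at 0.55, and every Trib3 estimate lies below 0 (0.05 in Adr at 3 days without replicate 3).

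Beside the Atf4 call, 0 of 9 members passed in each of the other 13 comparisons by limma, and 0 with voom on recovered fragments. Against Naïve, 0.187% of all genes passed in the Adr group at 0.5 days, 0.627% in that at 1 day, and 0% in each later one. In Arrest the share was 7.11% after 1 day, 0.139% after 3 days and 0% after 7 days. Arrest at 1 day, with the largest share of genes called, thus included no member. With the number in the sample descriptions as a covariate, the genes called there went from 1179 to 34, fewer than the 235 of Arrest at 0.5 days. That number runs from 70 to 95 in Arrest at 1 day and from 116 to 127 in Naïve. Its effect and that of the group therefore cannot be told apart there, and the loss does not decide whether the calls hold. Between Arrest and Adr of the same time the share was 0% for the first 3 times and 0.00603% for the last. They were 0% between Arrest at 1 and 0.5 days and 1.88% between Arrest at 1 and 7 days. At an unadjusted p of at most 0.05, Adr against Naïve held Atf4 at 0.5 days, Psat1 and Mthfd2 at 1 day, Psat1 and Asns at 3 days and no member later. Arrest against Naïve held 3 at 0.5 days (Atf4, Psat1 and Phgdh) and 0 at later times, and the other 6 comparisons held 0. The corresponding shares of all genes were 13.96%, 14.69%, 13.85% and 6.17% in Adr and 18.14%, 21.72%, 13.71% and 5.14% in Arrest, in order of time. In the other 6 comparisons they were 3.87%, 6.59%, 5.37% and 2.53% between Arrest and Adr, 2.96% between Arrest at 1 and 0.5 days and 14.83% between Arrest at 1 and 7 days. Intervals were wide, with a median half-width over the comparisons from 0.31 for Atf4 to 0.95 for Gdf15. They are not adjusted for the number of genes tested, so changes of that size and larger ones could have gone undetected.

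Between Arrest and Adr at the same time, the 95% interval of every tested member included 0. At 0.5 days the 9 estimates ran from -0.31 (Chac1) to 0.29 (Phgdh), with a median of 0.18. At 1 day they ran from -0.46 (Mthfd2) to 0.39 (Trib3), and Atf4 was at 0.32 (95% interval -0.005 to 0.65, adjusted p = 0.759). At 3 days they ran from -0.47 (Gdf15) to 0.51 (Chac1), and at 7 days from -0.08 to 0.33. The 3-day estimates include Adr 3 d replicate 3, and this comparison is not given without it. Against Naïve, Gdf15 in Adr at 3 days was 0.87 with that library and 0.18 without it, beside 0.40 in Arrest. The sign of the -0.47 therefore rests on that library. The lowest adjusted p in these 4 comparisons was 0.759.

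Upstream of ATF4, the list of 8 eIF2α kinases and sensors had no gene called in any comparison. Its most abundant genes were Dele1 and Oma1, which relay mitochondrial stress to the kinases, and Eif2ak1, the kinase HRI. Oma1 had 10.7 to 13.5 FPKM in Naïve and 8.32 to 9.69 FPKM in Arrest at 0.5 days, so all Arrest libraries were lower, with a difference of -0.42 (adjusted p = 0.214). The share of all genes lower in every Arrest library was not computed. Dele1 had 14.6 to 19.1 FPKM in Naïve and 12.2 to 15.2 FPKM in Arrest (-0.30, adjusted p = 0.436), and Eif2ak1 differed by -0.13 (adjusted p = 0.632). The median of the 8 genes was -0.08 at 0.5 days and -0.23 at 1 day in Arrest, against 0.03 for all genes tested. At an unadjusted p of at most 0.05, 2 of the 8 passed at 0.5 days (Oma1 and Eif2ak4) and 3 at 1 day (these and Eif2ak2), beside 18.14% and 21.72% of all genes. Eif2ak4, the amino acid sensor GCN2, was higher (0.33 and 0.39), and Eif2ak2, the RNA sensor PKR, lower (-0.55), with adjusted p-values of 0.271, 0.139 and 0.129. Both were named after their values were seen.

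Among the 10 subunits of eIF2 and eIF2B and phosphatase regulators, Eif2s1 rose in Arrest at 1 day. It encodes eIF2α itself, and the 4 Arrest libraries had 10.6, 10.9, 12.4 and 11.6 FPKM against 9.29, 7.71, 8.07, 4.90 and 9.31 in Naïve, without overlap. The share of all genes without overlap at 1 day was not computed. The difference was 0.51 (95% interval 0.22 to 0.79, adjusted p = 0.0243). Adr at 1 day had 13.2, 13.0, 8.72 and 11.3 FPKM, with 2 libraries above every Arrest library, and an estimate of 0.52 (adjusted p = 0.0737). The Arrest estimate was 0.37 (adjusted p = 0.0778) without Naïve replicate 4 and 0.47 (adjusted p = 0.0911) without Arrest 1 d replicate 3. The call was also lost in 4 of 12 other processing settings. Eif2s2, the β subunit, was higher in Arrest at 1 day than at 7 days by 0.48 (adjusted p = 0.0366), with 15.3 to 20.9 FPKM against 12.2 to 13.5. The call of Eif2s2 was lost in 7 of 9 fits that left out 1 library and in 3 of 12 other processing settings.

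The 9 further bZIP factors and their regulators had no gene called. Atf3 had the largest estimate, 1.82 (95% interval 0.31 to 3.32, adjusted p = 0.175), in Arrest at 0.5 days, where libraries spread from 19.4 to 218 FPKM against 3.04 to 28.0 in Naïve. Cebpb, a dimer partner of ATF4, had 45.8 to 76.9 FPKM there against 19.2 to 56.2 in Naïve, with overlap (difference 0.74, adjusted p = 0.143). Atf5, another target and relative of ATF4, differed by 0.23 (adjusted p = 0.617). The list's median was 0.23 at 0.5 days in Arrest, where 3 of the 9 passed without adjustment (p of at most 0.05), against 0 at 1 day, beside 18.14% and 21.72% of all genes.

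Of 10 tested other stress targets, 1 was called. Eif4ebp1, which encodes 4E-BP1, a brake on cap-dependent translation, rose in Arrest at 1 day to 40.1, 47.4, 48.2 and 28.4 FPKM from 23.9, 16.8, 20.4, 13.9 and 20.6 in Naïve. All 4 Arrest libraries lay above all Naïve libraries, a pattern whose share over all genes was computed only for Arrest at 0.5 days. The difference was 1.06 (95% interval 0.62 to 1.49, adjusted p = 0.00304), and it stayed past the threshold in each of the 10 fits that left out 1 library. It was also higher at 1 day than at 7 days in Arrest, by 0.93 (adjusted p = 0.0257), a call lost in 6 of 9 such fits. Of 12 other processing settings, 1 lost the call against Naïve and 2 lost that against 7 days. Adr at 1 day had 20.4, 22.7, 38.7 and 46.6 FPKM, with 2 of the 4 libraries inside the Naïve range and an estimate of 0.66 (adjusted p = 0.129). Adr at 0.5 days had 27.4, 24.7, 39.0 and 30.4 FPKM, all above every Naïve library. Its estimate was 0.64 (adjusted p = 0.167), beside 0.65 (adjusted p = 0.0848) in Arrest at 0.5 days.

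Of 8 tested amino acid transporters, Slc3a2 rose. It encodes CD98, the heavy chain shared by several exchangers. Naïve libraries had 12.5, 11.1, 8.91, 7.44 and 8.26 FPKM, Arrest 19.5, 28.2, 14.7 and 17.2 FPKM at 0.5 days and 18.6, 15.4, 29.8 and 15.4 FPKM at 1 day. No Arrest library of these times reached down into the Naïve range. This held for 4.49% of all genes at 0.5 days, and the share at 1 day was not computed. The differences were 0.96 (adjusted p = 0.0343) and 0.94 (adjusted p = 0.0217). They fell to 0.78 (adjusted p = 0.167) without Arrest 0.5 d replicate 2 and to 0.73 (adjusted p = 0.129) without Arrest 1 d replicate 3. The call at 0.5 days was lost in 5 of 10 fits that left out 1 library and in 5 of 12 other processing settings. That at 1 day was lost in 3 of 10 and 2 of 12. In Adr at 0.5 days, replicates 3 and 4 had 18.5 and 27.5 FPKM and replicates 1 and 2 had 11.7 and 10.6, with an estimate of 0.69 (adjusted p = 0.209). Slc7a11 and Slc7a3 did not pass the filter.

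Of 12 aminoacyl-tRNA synthetases, Mars1 rose in Arrest at 0.5 days by 0.42 (adjusted p = 0.0351), from 7.38 to 9.96 FPKM in Naïve to 12.5, 14.3, 9.29 and 11.7 FPKM. The ranges overlapped by replicate 3. The call was lost in 6 of 10 fits that left out 1 library and in 5 of 12 other processing settings, and Mars1 is the gene that overlaps Ddit3. The estimates of 10 of the 12 synthetases were above 0, with a median of 0.15 against 0.03 for all genes.

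The 16 further enzymes of serine, glycine, proline and one-carbon metabolism had no gene called and a median of -0.03 in Arrest at 0.5 days. At an unadjusted p of at most 0.05, 0 of 16 passed there and at 1 day, beside 18.14% and 21.72% of all genes. Shmt2, the mitochondrial serine hydroxymethyltransferase, was the most abundant with 7.49 to 11.5 FPKM in Naïve and 9.68 to 12.0 FPKM in Arrest (0.19, adjusted p = 0.481). Gpt2 differed by -0.16 (adjusted p = 0.737). The 13 genes of the parallel ATF6 and XBP1 branch, which serves protein folding in the endoplasmic reticulum, had no gene called either. Their median was 0.45 in Arrest at 0.5 days, with 12 of 13 estimates above 0, and 0.03 at 1 day, against 0.03 for all genes at either time. Without adjustment (p of at most 0.05), 3 and 1 of the 13 passed at these times, beside 18.14% and 21.72% of all genes. Hspa5, the chaperone BiP, had 87.0 to 226 FPKM against 90.3 to 127 in Naïve (0.42, adjusted p = 0.582).

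The receptors of the secreted factors were sparse. Gfral was at 0 in all 37 libraries, and Klb, Fgfr2 and Fgfr4 did not pass the filter. Of the 3 tested, Fgfr3 rose in Arrest to 3.53, 7.66, 2.62 and 3.68 FPKM at 0.5 days and 4.49, 3.39, 5.45 and 2.78 FPKM at 1 day, from 2.38, 2.04, 1.31, 0 and 1.31 in Naïve. All 8 Arrest libraries exceeded all Naïve libraries. So did all 4 Adr libraries at 1 day, with 2.96, 3.03, 5.24 and 3.46 FPKM and an estimate of 1.04 (adjusted p = 0.0712). At 0.5 days 4.49% of all genes had every Arrest library above every Naïve library, and this share was not computed at 1 day. The Arrest differences were 1.19 (adjusted p = 0.0173) and 1.14 (adjusted p = 0.011), and 0.90 and 0.86 without Naïve replicate 4, still past the threshold. The call was lost without Arrest 0.5 d replicate 2 (0.93, adjusted p = 0.112) or Arrest 1 d replicate 3 (1.02, adjusted p = 0.0606). At either time it was also lost in 2 of 12 other processing settings. Over the 9 lists and 89 tested genes, 3 were called higher in Arrest at 0.5 days and 4 at 1 day, and 0 lower, beside 3.2% and 7.11% of all genes called, a share near the background at 0.5 days and under it at 1 day, while 0 were called in Adr at any time or between Arrest and Adr. With the number in the sample descriptions as a linear covariate, each of the calls was lost, that of Eif4ebp1 against Naïve at 0.89 with an adjusted p of 0.206. The number runs from 70 to 95 in Arrest at 1 day and from 116 to 127 in Naïve, so it cannot be told apart from the group there. Arrest replicates 1 to 4 at 0.5 days had 103, 104, 99 and 124, the last inside the Naïve range. Those at 7 days had 83, 86, 128 and 120, which overlap the range at 1 day. The calls at 0.5 days and between 1 and 7 days thus depended on leaving this number out, although the groups overlap in it.

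**Figure D4:**
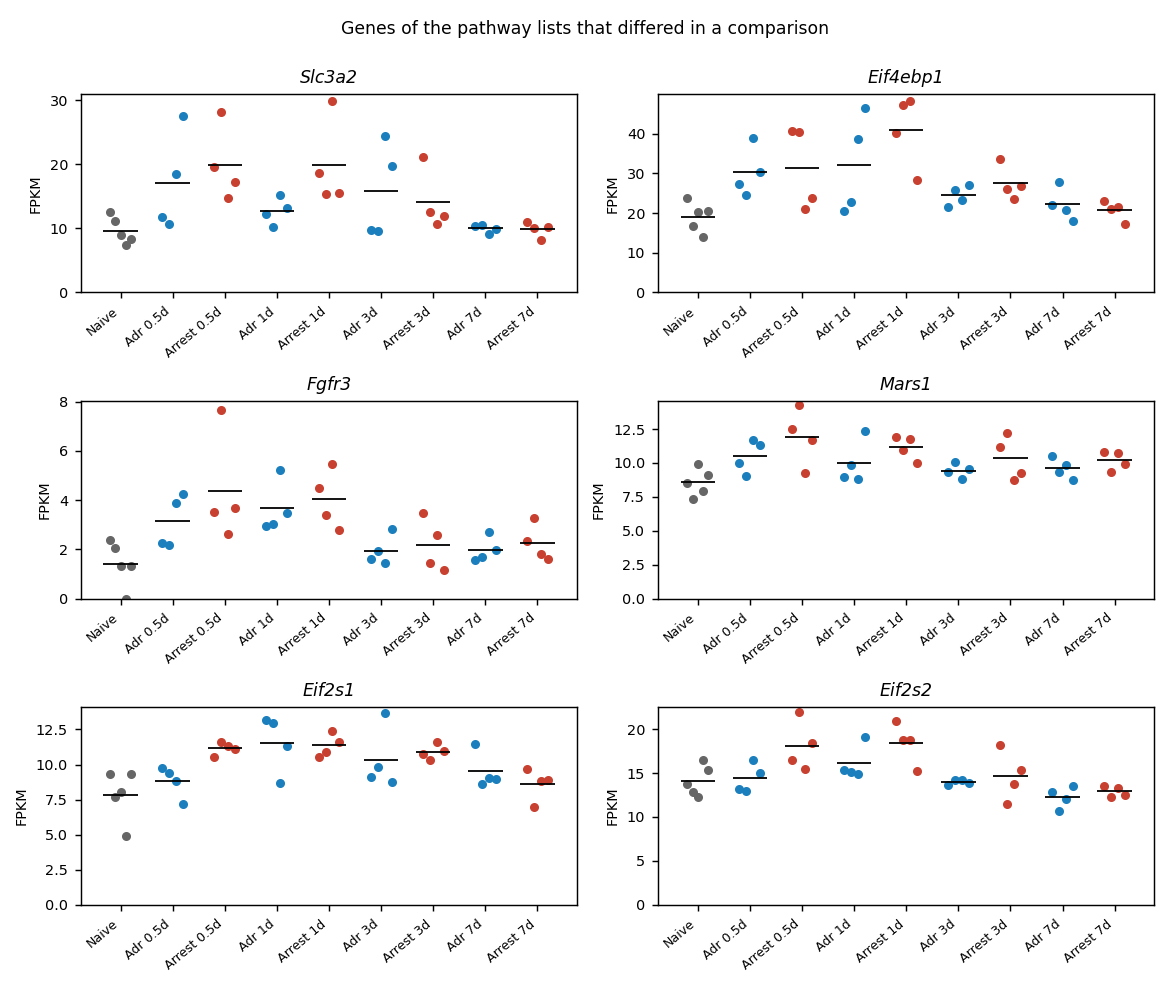
FPKM (y axis, from 0) of the 6 pathway genes that passed the test in a comparison, in every library of the 9 groups (x axis), with a bar at the group mean. Slc3a2, Eif4ebp1 and Fgfr3 lie above Naïve in Arrest at 1 day in each library, and several Adr libraries at 0.5 and 1 day reach the same levels.

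The members did not vary as a block from library to library. Correlations were taken of deviations from the group means over 37 libraries, as a description. The median over 36 pairs of members was 0.02. Psat1 and Mthfd2 reached 0.74, Asns and Phgdh 0.65 and Psat1 and Phgdh 0.47. Atf4 correlated negatively with Asns (-0.42) and with Phgdh (-0.35). Without Adr 3 d replicate 3, Asns and Phgdh stayed at 0.57 and Psat1 and Mthfd2 at 0.54, while Psat1 and Phgdh went to 0.15. The points share libraries and, for the enzymes, low counts.

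**Figure D5:**
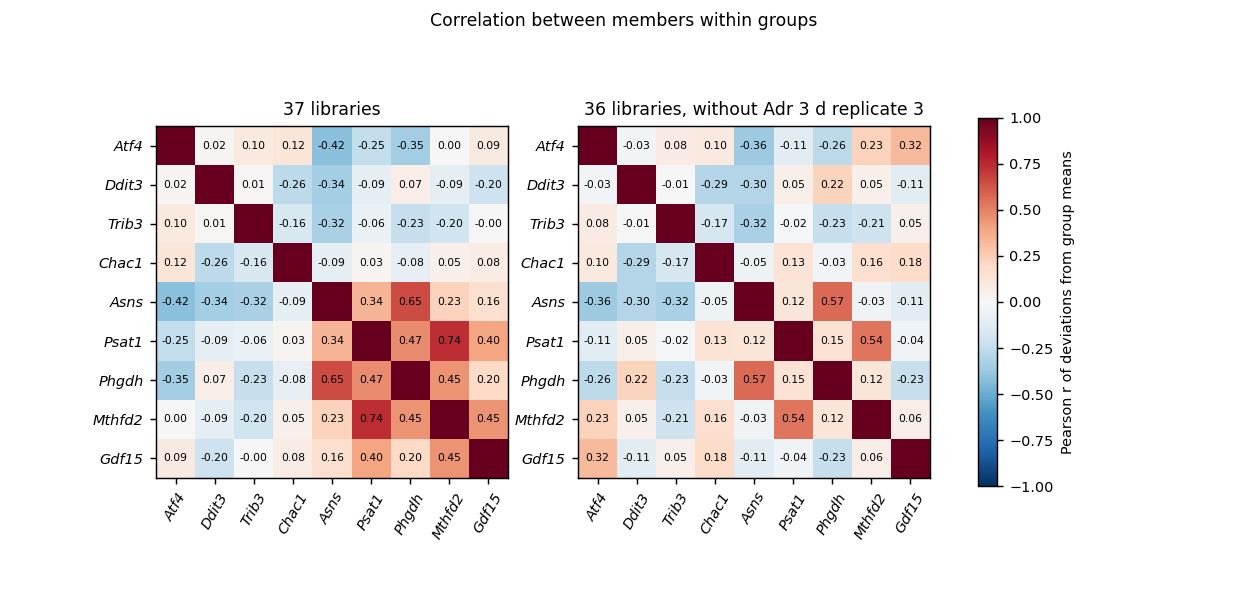
Pearson correlation (colour scale from -1 to 1) between members, of deviations from group means in log2(FPKM + 1), over 37 libraries (left) and over 36 without Adr 3 d replicate 3 (right). Asns with Phgdh and Psat1 with Mthfd2 stay above 0.5 in both maps, and the other pairs of enzymes fade in the right map.

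The genes most like each member were taken over all libraries among those with a mean of at least 1 FPKM. Over 37 libraries, Cxcl14 (0.69), Slc39a14 (0.67) and Uqcc2 (0.67) were most like Atf4, and over 36, without Adr 3 d replicate 3, Inhbb (0.75), Cebpb (0.72) and Ier5 (0.68). Ddit3 was most like Cdk2ap2 (0.62) over 37 libraries and most like Sdf2l1 (0.66), a component of the folding machinery of the endoplasmic reticulum, over 36. Psat1 was most like Timp1, a metalloproteinase inhibitor, in both cases (0.81 and 0.79). Mthfd2 was most like Foxc2 (0.76 and 0.68), Asns most like Cdc42 (0.76 and 0.67) and Phgdh most like Sec61a1 (0.76 and 0.65). Gdf15 was most like Rac2 (0.76) over 37 libraries and most like Csnk2a2 (0.61) over 36. Chac1 was most like Msantd3 (0.56) over 37 libraries and most like Lrrc10 (0.59) over 36, and Trib3 was most like Ajuba in both cases (0.62 each).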

How the data were processed

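Left ventricular RNA of 37 libraries was analysed, grouped by the sample labels. Novogene sequenced the libraries, and the authors aligned reads with HISAT2 and used DESeq2 for their own tests. Their deposited table gives FPKM, which the authors computed, for 56748 genes. The genome build, annotation, counting tool and strand are not given in the sources used here, so promoter coordinates are those of RefSeq on GRCm38.p6. All per-sample columns were used (0 were left out). FPKM times gene length was a whole multiple of 1 step in 100% of the values (tolerance 0.05), which gave the fragments per library. The step was not 1 over the fragment total, and median-ratio factors were 1.0131 in every library, so libraries had been scaled to each other before deposit and none was scaled again. No pair within a group differed by so little that it could be a duplicate (lowest chi-square per gene 8.43 over 58 pairs).

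The 16579 genes that reached 0.5 FPKM in 4 or more libraries entered the fit as log2(FPKM + 1), a scale that understates the changes of low genes. The fit used limma 3.58.1 (R 4.3.3) with 1 mean per group, no covariates and a trended eBayes step. The Benjamini-Hochberg method adjusted p within each of 14 comparisons, with a threshold of 0.05. The fit was tested on simulated data. Fgf21 was compared with Naïve by exact two-sided permutation tests in Python 3.11.15 with scipy 1.17.1. Figures were drawn with matplotlib 3.10.9. Alternatives were other scalings, pseudocount, filters, weights, covariates, voom on recovered fragments and leaving out libraries. The members, lists and tests were chosen with earlier results of these data known. All members are named. Of each pathway list the genes called are named (at most 6 per comparison), and where none was called up to 3 with the highest mean FPKM. The 3 genes most like each member were computed, and the first or all of them are given.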

Additional observations from a re-analysis of the deposited data

Results flagged for a closer look

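In 85 combinations of a member and a group of 4 or 5 libraries, 9 held a library whose gap to the next exceeded Dixon's 95% critical value. Chance gives such a gap in about 1 of 20 groups of normally distributed values. Low FPKM with several values at 0 are not such values, so the 9 cannot be set against that rate. Adr 3 d replicate 3 was set apart for Psat1 (7.92 FPKM), Mthfd2 (6.21 FPKM), Gdf15 (12.1 FPKM) and Phgdh (4.68 FPKM). Naïve replicate 4 was set apart for Trib3 (9.76 FPKM), and Arrest 7 d replicate 2 for Asns (1.76 FPKM). For Fgf21, Adr 0.5 d replicate 1 (0.225 FPKM), Arrest 0.5 d replicate 4 (0.0921 FPKM) and Arrest 1 d replicate 2 (0.748 FPKM) were each the only library of their group above 0, a case that the rule always flags.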

How the results depend on the processing

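The count of members called in Arrest at 0.5 days against Naïve was 1 as reported. It was 0 after quantile normalisation, without a filter, with only the groups compared, with the label number as covariate, with the replicate block and with the trend with gene length removed, and 0 to 1 when a library was left out. The cause was not tested, except that without a filter more genes were tested. In the other 13 comparisons it was 0 under every alternative run. Atf4 in that comparison ran from 0.45 to 0.57 over the 12 alternatives and from 0.39 to 0.69 when a library was left out. Of the 12, scaling by median ratios used the same factor (1.0131) in every library, so it could hardly change any result. Replicate numbers did not pair the samples: deviations of libraries with the same number in different groups had a median correlation of 0.0016, with 11 of 144 pairs over 0.1, and 7 of 37 libraries correlated best with their own number. With the replicate block Atf4 was 0.47 (adjusted p = 0.123). At 0.5 days in Arrest, Ddit3 turned to -0.057 with the length trend removed and ran from -0.12 to 0.28 over left-out libraries. Chac1 turned to 0.040 with a pseudocount of 0.1, 0.016 with voom and 0.079 with the label number, and ran from -0.23 to 0.16, and Gdf15 ran from -0.030 to 0.46. Without Adr 3 d replicate 3 the correlation of Psat1 and Mthfd2 was 0.535, of Psat1 and Phgdh 0.147, of Mthfd2 and Phgdh 0.121 and of Mthfd2 and Gdf15 0.0641. Of all genes called in Arrest at 0.5 days, 290 were higher and 241 lower, and after quantile normalisation 209 were higher and 313 lower, with 522 called in all. The calls ranged from 235 with the label number to 725 with sample quality weights over the 12 alternatives, against 531, with 323 without a filter, 280 with the block and 300 with the length trend removed. Without Arrest 0.5 d replicate 2 they were 125, without its replicate 1 250, and without Naïve replicates 1 and 5 346 and 335, while without Adr 3 d replicate 3 they were 906. In Arrest at 1 day the 1179 calls became 34 with the label number, 768 with the block, 1947 with sample quality weights, and 577 and 486 without its replicates 1 and 3. The label number does not overlap between Arrest at 1 day and Naïve, so it cannot be told apart from the group there. Between Arrest at 0.5 days and Naïve it overlaps through Arrest replicate 4 (124), and the Atf4 call was lost with it there. At 13.2 to 30.2 M fragments, members near 1 FPKM rested on a median of 30 to 88 fragments, which limits what could be detected.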
